A study of Mus musculus with 9 samples.

Results

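Coagulation and plasminogen activation share a set of proteases, cofactors and receptors, and 9 of their genes are described here in mouse bone marrow derived macrophages (BMDMs): F3, F5, F7, F10, F13a1, Thbd, Procr, Plau and Plaur. They were taken by symbol from the 53465 genes of the deposited count table, and each symbol was found on a row of that table. All 9 passed the filter on low counts, which kept the 11950 genes that reached more than 1 CPM, a count scaled to the library's total, in 3 or more libraries. BMDMs were grown from marrow of male wild-type C57BL/6 mice in medium with CSF1 at 50 ng/ml and fetal bovine serum. In 3 libraries they were left untreated (UNX), in 3 they received medium conditioned by pulmonary artery adventitial fibroblasts of control calves (CO-CM), and in 3 they received medium from fibroblasts of calves made pulmonary hypertensive by hypobaric hypoxia (PH-CM). The fibroblasts were bovine and the macrophages murine, and each conditioned medium was a pool over several fibroblast populations, so the replicates repeat the macrophage culture and not the calf. The conditioned media carried added serum, and UNX cells received no medium from fibroblasts, so CO-CM is the control for the disease state of the fibroblast and UNX the control for exposure to any conditioned medium. For the conditioned media the study's methods name added serum but not CSF1, and the fibroblasts were grown with bovine calf serum. Against UNX, effects of fibroblast products therefore cannot be told apart from those of differences in serum or CSF1. The labels give 16 h of exposure in 1 place and 24 h in another, and the study's methods state a time between these.

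As background, clotting begins when factor VII binds tissue factor, encoded by F3, on a cell surface. The complex activates factor X, and activated factor X together with its cofactor, factor V, turns prothrombin into thrombin. Thrombin cleaves fibrinogen to fibrin, which factor XIII crosslinks, while thrombomodulin (Thbd) and the endothelial protein C receptor (Procr) turn thrombin towards activating the anticoagulant protein C. Fibrin is cleared by plasmin, which the urokinase plasminogen activator (Plau) releases from plasminogen on cells that hold it at its receptor (Plaur). Macrophages are known to make several of these proteins outside the liver.

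The sequences just upstream of 4 of the genes are shown here because they belong to the genes on which the results turn: F5, which rose most, F7 and F10, which lie side by side and rose under both media, and Plaur, the receptor whose ligand gene fell most. Each is the 250 bases before the RefSeq start site in GRCm38.p6, on the plus strand, 5′ to 3′. Capitals mark matches, on either strand, to the AP-1 letters TGANTCA, the GC box GGGCGG, the hypoxia response core ACGTG or GCGTG, the PU.1 core GAGGAA, and the TATA box TATAAA.
F5, chr1:164151585-164151834: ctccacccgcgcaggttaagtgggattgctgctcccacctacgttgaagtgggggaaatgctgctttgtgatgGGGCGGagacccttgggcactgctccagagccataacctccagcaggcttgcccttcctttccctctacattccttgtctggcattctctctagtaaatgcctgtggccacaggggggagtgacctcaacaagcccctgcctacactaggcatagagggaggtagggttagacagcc
F7, chr8:13025784-13026033: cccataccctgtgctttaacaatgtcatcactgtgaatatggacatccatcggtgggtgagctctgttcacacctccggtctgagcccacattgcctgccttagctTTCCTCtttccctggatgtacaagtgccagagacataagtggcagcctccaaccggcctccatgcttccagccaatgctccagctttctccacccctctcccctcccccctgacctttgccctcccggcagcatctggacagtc
F10, chr8:13037058-13037307: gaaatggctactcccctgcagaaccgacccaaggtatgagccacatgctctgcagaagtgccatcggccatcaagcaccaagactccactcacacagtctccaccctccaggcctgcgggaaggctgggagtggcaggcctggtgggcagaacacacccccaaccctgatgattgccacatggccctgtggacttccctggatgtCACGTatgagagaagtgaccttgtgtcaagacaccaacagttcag
Plaur, chr7:24462233-24462482: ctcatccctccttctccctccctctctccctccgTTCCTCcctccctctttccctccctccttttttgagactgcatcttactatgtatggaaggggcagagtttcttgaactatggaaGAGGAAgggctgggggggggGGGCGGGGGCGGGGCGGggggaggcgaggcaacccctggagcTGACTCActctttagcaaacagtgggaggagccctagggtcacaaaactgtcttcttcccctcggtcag

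The set of RefSeq windows used here held 7 of the 9 genes, with 2 start sites for F13a1. It had no window for Thbd or Plau, so these were not searched. AP-1 letters stood 69 bases before the Plaur start, 154 before the Procr start, and at 146 and 135 before the F3 start, and the windows of F5, F7, F10 and F13a1 held none. Of 32851 RefSeq windows of the same length, 6.75% held AP-1 letters, 32.7% a GC box, 38.6% a hypoxia response core, 23.3% a PU.1 core and 12.4% a TATA box. F7 held a PU.1 core 144 bases before its start, F10 a hypoxia response core at 45 bases, F5 a GC box at 177 bases, and Plaur 3 GC boxes and 2 PU.1 cores. No window of these genes held a TATA box, and no matches to different motifs overlapped. A match is a run of letters and was not tested as a binding site.

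Libraries held between 62017933 and 84314201 reads counted on genes and F3 had the fewest reads of the 9 members. Between 81.4% and 83.8% of counts under 20 were even, so each mate of a read pair was taken to be counted separately, and a count stands for fewer fragments than reads. The 7 macrophage markers (Cd68, Adgre1, Csf1r, Lyz2, Itgam, Fcgr1 and Mertk) all passed the filter, and Lyz2, at means of 7251, 12814 and 15204 CPM in UNX, CO-CM and PH-CM, held most of their sum. Itgam (107, 91.8 and 176 CPM) and Fcgr1 (99.5, 89.5 and 129) were lowest in CO-CM. The summed level ran from 11483 to 12326 CPM in UNX, from 18838 to 19781 in CO-CM and from 20727 to 22404 in PH-CM. Libraries with the same replicate number deviated together from their group means, and values from a fit that pairs them by number (the replicate block) are given where they change a call. A gene was called when it changed 1.2-fold or more with an edgeR FDR (Benjamini-Hochberg over the 11950 genes) no higher than 0.05. The smallest two-sided p of an exact permutation test with 3 libraries a group is 0.1, so single genes were tested with edgeR's moderated spread only. These are bulk libraries, so more cells making an RNA and more of it per cell cannot be told apart.

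Compared with UNX, 6 of the 9 genes rose under PH-CM (F5, F7, F10, F13a1, Thbd and Procr), 2 fell (Plau and Plaur) and F3 was not called. Among all genes tested, 31.3% were called higher and 31.7% lower in this comparison, 63.0% in all. Under CO-CM, 3 rose (F7, F10 and Procr), 2 fell (Plau and Plaur) and 4 were not called, where 28.0% of all genes were called higher and 28.9% lower, 57.0% in all. Between the media, F5, F13a1 and Thbd were higher and Plau was lower under PH-CM, against 12.2% higher and 15.0% lower of all genes, 27.1% in all. The median log2 fold change over the 9 genes was 1.14 under PH-CM, 0.14 under CO-CM and 0.38 between the media, beside 0.01, 0.00 and -0.01 over all genes tested. Groups did not overlap in CPM for 8 of the 9 genes between PH-CM and UNX, for 6 between CO-CM and UNX and for 6 between the media, beside 77.7%, 72.0% and 50.2% of all genes. The comparisons with UNX share the same untreated libraries.

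**Figure D1:**
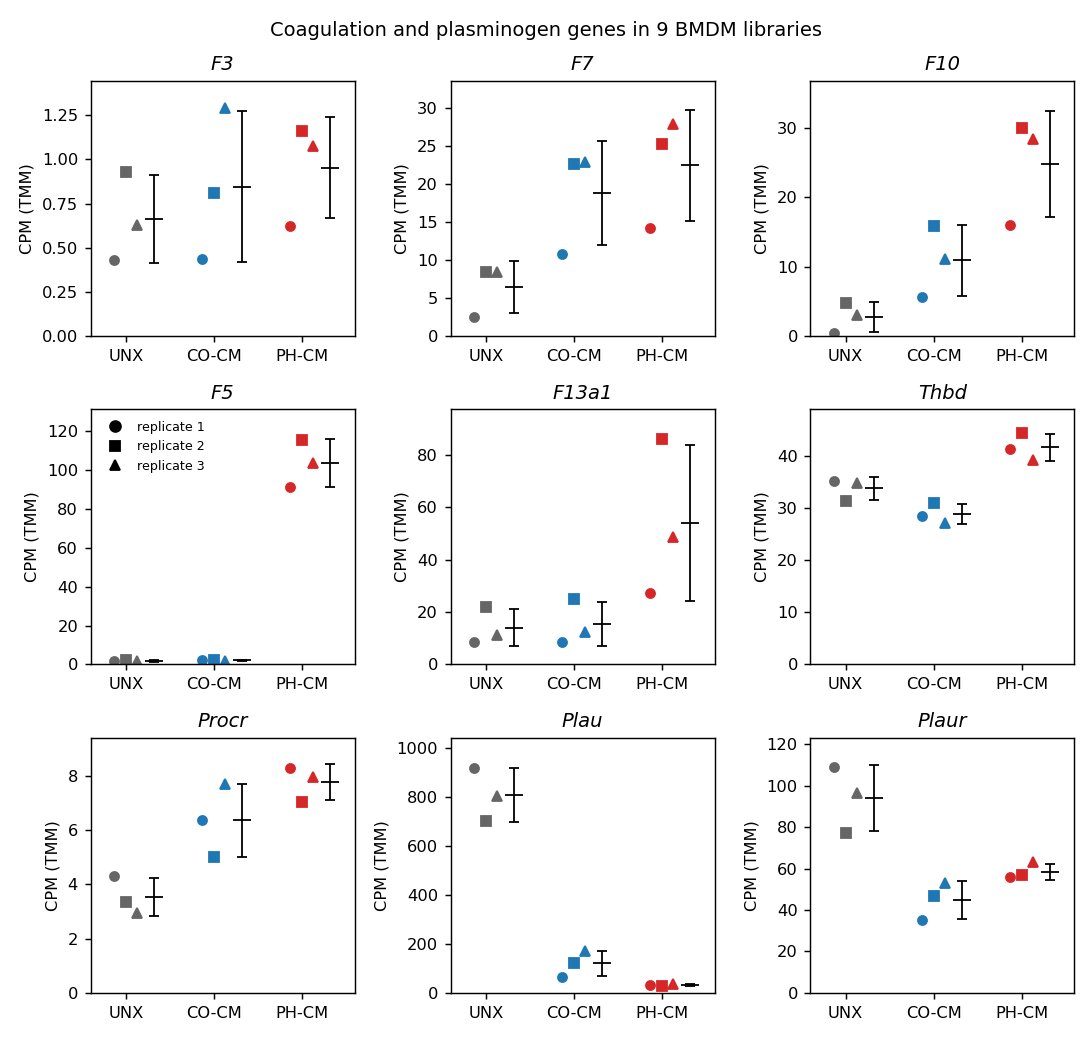
CPM after TMM scaling (y axis, linear from 0) of each of the 9 genes in the UNX, CO-CM and PH-CM libraries (x axis), with replicate numbers as symbols and the mean ± SD of 3 libraries in black. F5 stands between 91.04 and 116 CPM in the PH-CM libraries and at no more than 2.44 CPM in the other 6, and Plau falls from UNX to CO-CM to PH-CM without overlap.

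F3 (ENSMUSG00000028128, chromosome 3 from 121723537 to 121735048 of GRCm38, plus strand, up to 6 exons) encodes tissue factor, the receptor that starts clotting. It had 28, 70 and 54 reads in UNX replicates 1 to 3, 30, 54 and 92 in CO-CM, and 42, 72 and 68 in PH-CM. All 3 groups overlapped, and the gene passed the filter through CO-CM replicate 3 and PH-CM replicates 2 and 3. Mean levels were 0.663 ± 0.250 CPM in UNX, 0.847 ± 0.429 in CO-CM and 0.953 ± 0.288 in PH-CM (SD, n = 3 each). The log2 fold change was 0.51 (SE 0.405, edgeR FDR 0.274) under PH-CM and 0.35 (SE 0.406, FDR 0.464) under CO-CM. Halving the counts left the SE under PH-CM at 0.402, and the replicate block brought it to 0.255 (FDR 0.0739), and F3 was called in neither fit.

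F7 (ENSMUSG00000031443, chromosome 8 from 13026034 to 13035809, plus strand, 8 exons) encodes factor VII, the protease that tissue factor binds. It stood at 2.56, 8.48 and 8.39 CPM in UNX replicates 1 to 3, at 10.9, 22.6 and 22.9 in CO-CM and at 14.2, 25.3 and 27.9 in PH-CM. Every library with either conditioned medium lay above every UNX library, while CO-CM and PH-CM overlapped. The rise was 2.87-fold under CO-CM (log2 1.52, SE 0.426, FDR 0.00863) and 3.43-fold under PH-CM (log2 1.78, SE 0.427, FDR 0.0032). Between the media the log2 difference was 0.26 (SE 0.405, FDR 0.658). With the replicate block it was 0.28 (SE 0.114, FDR 0.0648) and still not called. Within replicate numbers 1 to 3 PH-CM exceeded CO-CM by 1.31-, 1.12- and 1.22-fold.

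F10 (ENSMUSG00000031444, chromosome 8 from 13037308 to 13056676, plus strand, up to 9 exons) encodes factor X and begins 1498 bases after F7 ends, on the same strand. Its upstream window, printed above, lies within that gap. UNX libraries held 0.494, 4.72 and 3.03 CPM, CO-CM libraries 5.67, 15.9 and 11.1, and PH-CM libraries 15.9, 30.0 and 28.3, in replicate order. The 3 groups stood in that order, and CO-CM replicate 2 lay just below PH-CM replicate 1. The rise was 3.89-fold under CO-CM (log2 1.96, SE 0.561, FDR 0.0098) and 8.84-fold under PH-CM (log2 3.14, SE 0.566, FDR 0.000486), and without UNX replicate 2, the highest of its group, the log2 values were 2.55 and 3.74. Between the media F10 was not called, with a log2 difference of 1.19 (SE 0.509, FDR 0.0926). With the replicate block it was called, at 1.26 (SE 0.210, FDR 0.000551, over all alternatives 0.000438 to 0.228), and PH-CM was higher within each of the 3 replicate numbers, by 2.81-, 1.89- and 2.55-fold. Without UNX replicate 1, which enters this comparison only through the shared estimate of the spread, it was called as well (FDR 0.0197).

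F5 (ENSMUSG00000026579, chromosome 1 from 164151838 to 164220277, plus strand, 25 exons) encodes factor V, the cofactor that speeds thrombin formation by factor X. It had 104, 184 and 136 reads in UNX, 148, 142 and 132 in CO-CM and 6120, 7178 and 6555 in PH-CM. In CPM these are 1.605, 2.44 and 1.58, then 2.16, 2.13 and 1.86, and then 91.04, 116 and 104. UNX and CO-CM overlapped, and PH-CM stood far above both. F5 rose 55.1-fold under PH-CM against UNX (log2 5.78, SE 0.157, FDR 1.28e-09), and within replicate numbers the fold was 56.7, 47.4 and 65.5. Under CO-CM the log2 value was 0.13 (SE 0.177, FDR 0.544). The gene overlaps the lincRNA Gm16548 on the other strand and the processed pseudogene Gm16588 on its own strand, which had 14 and 3 reads over the PH-CM libraries and 0 in the other groups. Counting did not use strand, so reads of a gene and of an antisense partner cannot be told apart.

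F13a1 (ENSMUSG00000039109, chromosome 13 from 36867178 to 37050244, minus strand, up to 15 exons) encodes the A subunit of factor XIII, the transglutaminase that crosslinks fibrin. UNX libraries held 8.52, 21.9 and 11.4 CPM, CO-CM libraries 8.75, 25.0 and 12.5, and PH-CM libraries 27.1, 86.1 and 48.5. In every group replicate 2 was highest and replicate 1 lowest, and every PH-CM library lay above all others. The rise under PH-CM was 3.86-fold against UNX (log2 1.95, SE 0.493, FDR 0.00432) and 3.50-fold against CO-CM (log2 1.81, SE 0.491, FDR 0.0149), and CO-CM against UNX was at 0.14 (SE 0.492, FDR 0.808). Within replicate numbers PH-CM exceeded UNX by 3.19-, 3.93- and 4.27-fold. In fits without pairing, the call against CO-CM was lost without CO-CM replicate 3 (FDR 0.0604) or PH-CM replicate 2 (FDR 0.067). The edgeR fit with the replicate block kept it (log2 1.80, SE 0.0712, FDR 1.63e-08), and the FDR over all alternatives ranged from 1.63e-08 to 0.067. Within replicate numbers PH-CM exceeded CO-CM by 3.10-, 3.45- and 3.87-fold. The antisense genes Gm49144 and Gm30489 overlap F13a1 and had 2 and 0 reads in all libraries.

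Platelets and megakaryocytes also carry factors V and XIII. Of 8 of their markers, 4 passed the filter, and their summed level ran from 153 to 178 CPM in UNX, from 114 to 144 in CO-CM and from 226 to 280 in PH-CM. Pf4 held most of this sum, with means of 162, 123 and 248 CPM in UNX, CO-CM and PH-CM. Ppbp (0.326, 0.0584 and 3.83 CPM) and Itga2b (0.243, 0.378 and 0.525) had their highest means in PH-CM, and Treml1 (2.52, 6.54 and 4.33) and Gp1ba (0.870, 1.23 and 1.16) in CO-CM. Gp5 was near 0 with its highest mean in PH-CM (0.0411, 0.0488 and 0.0740 CPM). Gp9 and Gp6 were at 0 reads in UNX and CO-CM, and in PH-CM Gp6 was at 0 and Gp9 at 0.00992 CPM. The part of these markers in the result was not tested.

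Thbd (ENSMUSG00000074743, chromosome 2 from 148404466 to 148408188, minus strand, 1 exon) encodes thrombomodulin, the thrombin receptor that redirects thrombin to protein C. It stood at 35.3, 31.4 and 34.8 CPM in UNX, 28.6, 31.0 and 27.2 in CO-CM, and 41.5, 44.5 and 39.2 in PH-CM. The groups did not overlap, with CO-CM lowest and PH-CM highest. Against UNX the changes were small: 0.30 on the log2 scale under PH-CM (SE 0.0710, FDR 0.00277), a fold of 1.23, and -0.23 under CO-CM (SE 0.0714, FDR 0.0158), which lay below the fold threshold. The PH-CM value fell below that threshold, at 0.25, without UNX replicate 2 or PH-CM replicate 2, while CO-CM passed it without UNX replicate 2 (-0.29) or CO-CM replicate 2 (-0.28). Between the media Thbd was 1.44-fold higher under PH-CM (log2 0.53, SE 0.0714, FDR 0.000251), with 1.45, 1.44 and 1.44 within the replicate numbers.

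Procr (ENSMUSG00000027611, chromosome 2 from 155751117 to 155755471, plus strand, up to 4 exons) encodes the receptor that presents protein C to thrombomodulin. It stood at 4.31, 3.37 and 2.93 CPM in UNX, 6.38, 5.00 and 7.70 in CO-CM, and 8.30, 7.05 and 7.98 in PH-CM. Libraries of both media lay above all UNX libraries and overlapped each other. The rise was 1.81-fold under CO-CM (log2 0.85, SE 0.177, FDR 0.00144) and 2.21-fold under PH-CM (log2 1.14, SE 0.177, FDR 0.000163), with 0.29 (SE 0.171, FDR 0.212) between the media. Both Thbd and Procr are also endothelial genes, and 8 endothelial markers, of which 4 passed the filter, summed to between 142 and 182 CPM in UNX, 409 and 481 in CO-CM and 313 and 333 in PH-CM. Vwf made up most of that sum. Kdr (37.1, 17.9 and 57.7 CPM in UNX, CO-CM and PH-CM) and Pecam1 (0.0590, 0.105 and 2.19) had their highest means in PH-CM, Cdh5 (1.24, 0.183 and 0.851) in UNX, Cldn5 was at 0 reads in every group, and the part of these markers in the result was not tested.

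Plau (ENSMUSG00000021822, chromosome 14 from 20836660 to 20843385, plus strand, up to 11 exons) encodes urokinase, the protease that converts plasminogen to plasmin. UNX libraries held 920.3, 702 and 804 CPM, CO-CM libraries 66.3, 123 and 172, and PH-CM libraries 32.4, 29.4 and 35.2. The groups were fully separated, with UNX highest and PH-CM lowest. Plau was 6.71-fold lower under CO-CM (log2 -2.75, SE 0.275, FDR 8.69e-06) and 25.0-fold lower under PH-CM (log2 -4.65, SE 0.302, FDR 2.51e-07). PH-CM was 3.73-fold below CO-CM (log2 -1.90, SE 0.272, FDR 0.000366), and the log2 difference within replicate numbers was -1.03, -2.07 and -2.29.

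Plaur (ENSMUSG00000046223, chromosome 7 from 24462484 to 24475968, plus strand, up to 7 exons) encodes the urokinase receptor. It stood at 109, 77.2 and 96.5 CPM in UNX, 35.0, 46.8 and 53.2 in CO-CM, and 56.0, 56.7 and 62.9 in PH-CM. Here the order differed from that of its ligand: UNX was highest, CO-CM lowest and PH-CM in between, without overlap. Plaur was 2.09-fold lower under CO-CM (log2 -1.07, SE 0.152, FDR 0.00011) and 1.61-fold lower under PH-CM (log2 -0.69, SE 0.150, FDR 0.00182). Between the media it was not called (log2 0.38, SE 0.151, FDR 0.0721), but the replicate block called it (0.38, FDR 0.031, over all alternatives 0.00218 to 0.189). In that blocked fit 5 members, F10 and Plaur among them, were called higher in PH-CM than in CO-CM cells, in place of 3. The edgeR exact test (FDR 0.04) and the DESeq2 Wald test (FDR 0.034) also called Plaur between the media. Under other scalings it was not called, with FDR 0.06 for library size alone, 0.0771 for DESeq2 size factors and 0.102 for upper-quartile factors. Fibroblast markers summed to 200 to 253 CPM in UNX, 274 to 325 in CO-CM and 254 to 339 in PH-CM, with 7 of 8 past the filter, and their part was not tested.

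**Figure D2:**
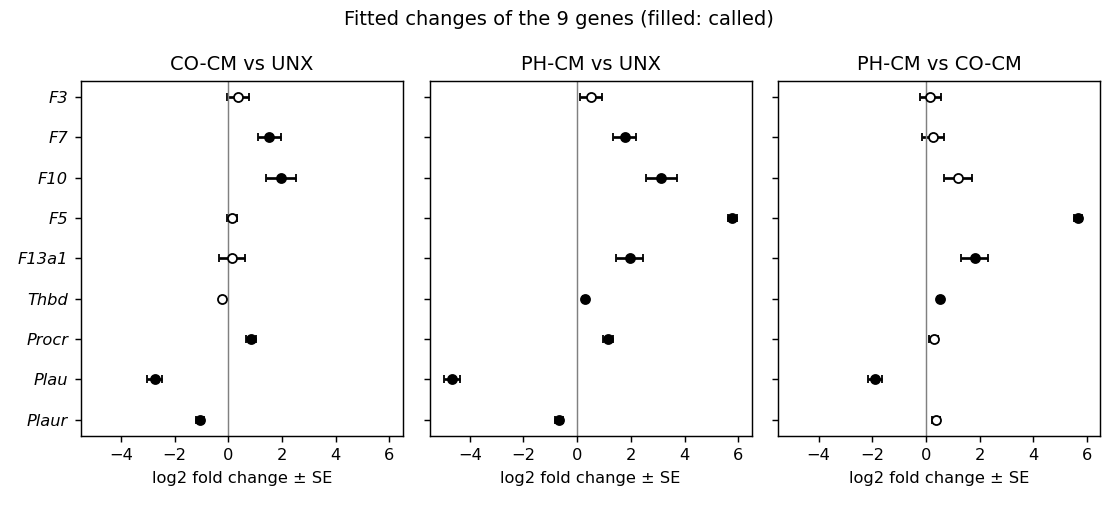
Log2 fold change ± SE from the edgeR fit (x axis) of the 9 genes for CO-CM against UNX, PH-CM against UNX and PH-CM against CO-CM, with filled points for called genes. F5 and F13a1 lie near 0 under CO-CM and at 5.78 and 1.95 under PH-CM, and Plau has the lowest value in every panel.

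Levels of different genes were compared on RPKM, the authors' values scaled for exon length and library size. In UNX the order of mean RPKM was Plau (352), Plaur (37.1), Thbd (9.35), F7 (3.57), F13a1 (2.12), Procr (1.79), F10 (1.03), F3 (0.269) and F5 (0.259). Plau, Plaur and Thbd were separated from each other and from F7, and from F7 downwards each gene overlapped the next. The mean of Plau stood at the 99.2 percentile of all genes tested and that of F5 at the 4.13 percentile. Under CO-CM Plau (49.7) and Plaur (16.8) kept the highest means, F7 (9.86) and Thbd (7.61) overlapped, and F3 (0.327) and F5 (0.270) were the lowest and overlapped. Under PH-CM Plaur (22.1) had the highest mean, and F5 (13.7), Plau (13.5), F7 (11.9), Thbd (11.1), F10 (8.92) and F13a1 (7.87) followed, each overlapping the next. Plau exceeded Plaur in RPKM by 9.22 to 10.1 times in UNX libraries and by 2.10 to 3.57 times in CO-CM libraries. In PH-CM libraries the ratio of Plau to Plaur was between 0.572 and 0.640, so the activator lay below its receptor in all 3. F5 went from the lowest mean of the 9 genes in UNX and CO-CM to the second highest in PH-CM.

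**Figure D3:**
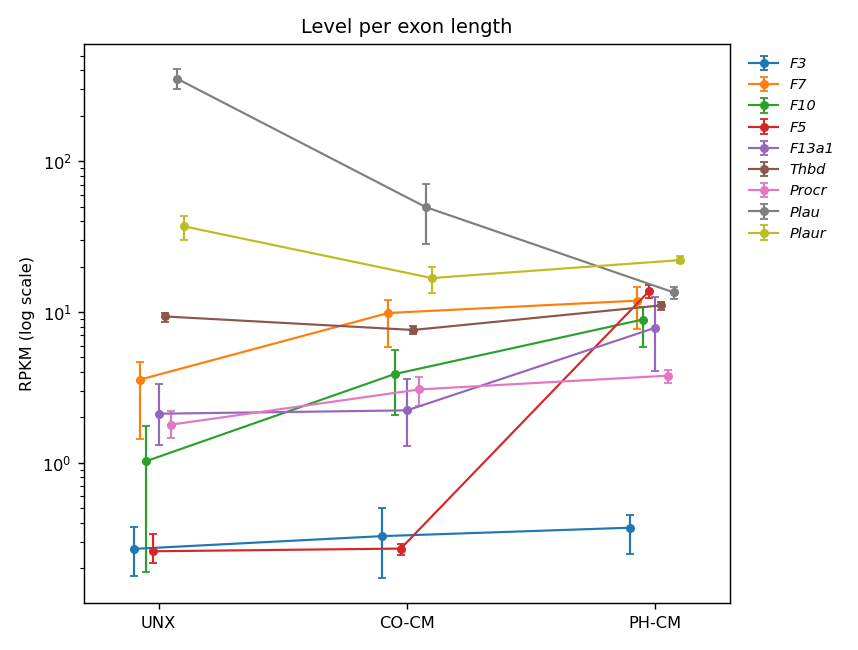
Mean RPKM (y axis, log scale) of the 9 genes in UNX, CO-CM and PH-CM libraries (x axis), with bars from the lowest to the highest of 3 libraries and lines joining the means of a gene. The range over genes spans 0.259 to 352 RPKM in UNX, and under PH-CM 6 genes other than Plaur lie between 7.87 and 13.7.

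For some of these genes replicate 1 stood apart in every group. F3, F7, F10 and F13a1 were lowest in replicate 1 in all 3 groups, which is 4 of 9 members, beside 16.5% of all genes tested. No member was highest in replicate 1 in all groups, beside 14.9% of genes. F10 in replicate 1 was at 0.128 of the mean of replicates 2 and 3 in UNX, at 0.421 in CO-CM and at 0.548 in PH-CM. F7 was at 0.304, 0.477 and 0.534, and F13a1 at 0.513, 0.466 and 0.403, in the same order. For F13a1 replicates 2 and 3 also differed, replicate 2 being 1.93, 1.99 and 1.77 times replicate 3. Thbd showed no such offset, with 1.07, 0.982 and 0.991. Without the 3 libraries of replicate 1, an alternative added after the data were seen, the calls of all members against UNX and those of F5, F13a1, Thbd and Plau between the media were kept, and F10 was called between the media (log2 1.12, FDR 0.00163).

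Around these 9 genes, 45 further genes of coagulation and plasminogen activation were listed by role. Of these, 19 passed the filter, 18 had reads but did not pass and 8 had no read in any library. Those without a read were F11, Kng1, Fga, Fgb, Fgg, F13b, Serpina10 and Serpina5, several of which are known as liver genes, and prothrombin (F2) and plasminogen (Plg) had 5 and 2 reads over all libraries. Under PH-CM 5 of the 19 rose and 8 fell, under CO-CM 5 rose and 2 fell, and between the media 3 were higher and 8 lower under PH-CM. Among all genes tested the shares called higher and lower were 31.3% and 31.7%, 28.0% and 28.9%, and 12.2% and 15.0% in the same order. The median log2 fold change over the 19 was -0.25, 0.15 and -0.15 in these comparisons, beside 0.01, 0.00 and -0.01 over all genes. These counts and medians include F9, called lower in both comparisons with PH-CM, which passed the filter only through UNX and CO-CM libraries.

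Among fibrin and platelet adhesion genes, Tgm2, a transglutaminase related to factor XIII, stood at 111, 89.1 and 100.4 CPM in UNX, 138, 114 and 116 in CO-CM and 574, 626 and 623 in PH-CM. Its rise was 2.60 on the log2 scale under PH-CM (SE 0.0961, FDR 4.6e-09) and 0.29 under CO-CM (FDR 0.0161). Vwf, the platelet adhesion protein that carries factor VIII, stood at 98.3, 148 and 128 CPM in UNX, 400.3, 464 and 391 in CO-CM and 255, 275 and 251 in PH-CM. It thus rose under both media, by 1.74 under CO-CM (SE 0.129, FDR 9.73e-07) and 1.06 under PH-CM (SE 0.127, FDR 2.54e-05), and was lower under PH-CM than CO-CM by -0.69 (FDR 0.00176). F9, the factor that activates factor X with factor VIII, was low throughout, with 0.875 ± 0.142 CPM in UNX, 1.16 ± 0.279 in CO-CM and 0.257 ± 0.0726 in PH-CM (SD, n = 3 each), and had a fitted log2 value of -1.76 under PH-CM (FDR 0.00029). It passed the filter only through UNX replicate 1 and CO-CM replicates 2 and 3, so it was tested because of the groups in which it was high.

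Serpinb2, an inhibitor of urokinase, went from 1.82, 1.51 and 1.63 CPM in UNX and 1.78, 0.898 and 1.52 in CO-CM to 5.15, 6.02 and 5.41 in PH-CM, a rise of 1.74 against UNX (SE 0.206, FDR 2.25e-05). Plat, the tissue plasminogen activator, did not pass the filter and had at most 48 reads in a library. Plgrkt, a plasminogen receptor, rose under both media, by 1.06 under CO-CM (FDR 1.3e-05) and 0.98 under PH-CM (FDR 1.74e-05). Eno1, a plasminogen-binding enolase named after its values were seen, was not called in the fit without pairing, but with the replicate block it was called lower under CO-CM than UNX (FDR 9.65e-05) and higher in PH-CM than CO-CM (FDR 0.000135). S100a10 and Anxa2, which together bind plasminogen, changed by -0.39 (FDR 0.00153) and -0.21 (FDR 0.142) under CO-CM, and by -0.25 (FDR 0.0176, below the fold threshold) and -0.29 (FDR 0.0477) under PH-CM. Lrp1, the scavenger receptor that clears protease and inhibitor complexes, was at -0.58 under PH-CM (FDR 4.09e-05) and -0.11 under CO-CM (FDR 0.223).

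Of the anticoagulant genes, Tfpi, the inhibitor of tissue factor and factor VII, was at -0.26 under PH-CM (FDR 0.00121), below the fold threshold, and was lower under PH-CM than CO-CM by -0.34 (FDR 0.000579). Pros1, the cofactor of activated protein C, was at -0.38 under PH-CM (FDR 0.00963) and 0.15 under CO-CM (FDR 0.257). Anxa5, which covers phosphatidylserine, fell under PH-CM (log2 -0.51, FDR 2.96e-05), rose under CO-CM (0.37, FDR 0.000371) and was at -0.89 between the media (FDR 3.63e-06). None of the 4 genes of the protease-activated receptor family passed the filter, and F2r, which encodes the main thrombin receptor of many cells, had at most 36 reads in a library. For the vitamin K cycle, on which factors VII, IX and X depend, Vkorc1l1 fell under PH-CM (-0.71, FDR 4.25e-07) and under CO-CM (-0.47, FDR 1.15e-05). Vkorc1 fell under PH-CM (-0.51, FDR 0.00565), was not called under CO-CM (0.17, FDR 0.257) and was lower under PH-CM than CO-CM by -0.69 (FDR 0.00267). Ggcx, listed in the same role, rose under CO-CM (0.27, FDR 0.0119) and was not called under PH-CM (0.12, FDR 0.195). Mcfd2, part of the cargo receptor that carries factors V and VIII out of the endoplasmic reticulum, was at 0.72 under PH-CM (FDR 1.38e-06), 0.25 under CO-CM (FDR 0.00327, below the fold threshold) and 0.47 between the media (FDR 0.000149). Lman1, the other part of that receptor, went the opposite way, at -0.52 under PH-CM (FDR 4.7e-06) and -0.27 between the media (FDR 0.00169), and was at -0.25 under CO-CM (FDR 0.00121, below the fold threshold).

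**Figure D4:**
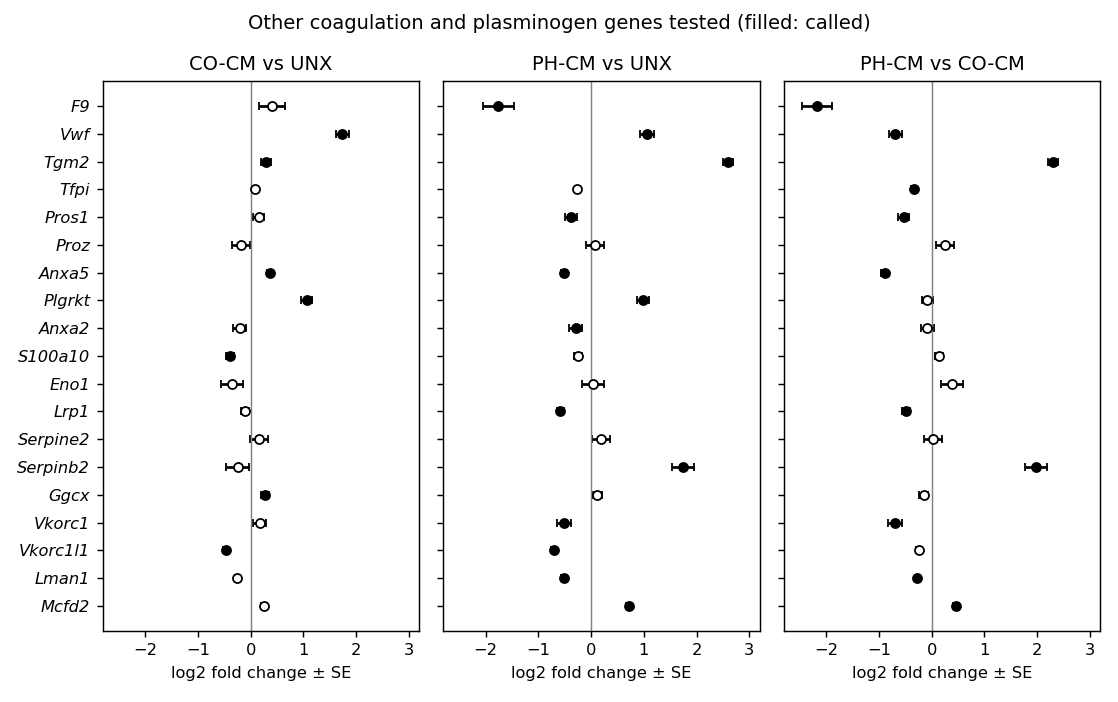
Log2 fold change ± SE (x axis) of the 19 other coagulation and plasminogen genes that passed the filter, grouped by role from top to bottom, for the 3 comparisons, with filled points for called genes. Tgm2 and Serpinb2 lie at 2.60 and 1.74 under PH-CM and at 0.29 and -0.24 under CO-CM.

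The tested gene whose log2 CPM followed each member most closely over the 9 libraries was Ms4a6b for F5 (Pearson r = 0.997), Gm4204 for Plau (0.996), Slc9a3r1 for F7 (0.989), Arrb1 for F13a1 (0.987), Rassf8 for F10 (0.985), Sesn2 for Thbd (0.982), Nptx1 for Plaur (0.981), Tfpt for Procr (0.967) and Shc1 for F3 (0.925). These are descriptions over 9 libraries that share 3 treatments and 3 culture numbers, each the highest of all tested genes. A high r did not mean a change of like size: Ms4a6b went from 8.53, 11.8 and 9.91 CPM in UNX to 72.8, 89.5 and 91.5 in PH-CM, less than F5 on the fold scale. Shc1, by contrast, stayed between 86.9 and 91.3 CPM over all libraries.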

How the data were processed

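RNA-Seq of 9 libraries of mouse BMDMs was used, 3 each UNX, CO-CM and PH-CM, assigned to group and replicate number from the titles. Per the labels, the authors cleaned reads with AfterQC, used STAR for alignment to GRCm38, and took exon counts per gene from featureCounts 1.6.2, naming no option for strand or pairs. The deposited counts are not normalized. The authors also deposited RPKM values, used here only to compare levels between genes. Their comparison tables (log2 fold changes, mean log2 CPM, p-values and FDR) were not used.

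The main test used edgeR 4.0.16 under R 4.3.3, with limma 3.58.1 loaded by it, and 2 alternatives used DESeq2 1.42.0. After the filter (CPM over 1 in 3 or more libraries), the 11950 genes left were scaled by TMM and tested in a quasi-likelihood fit of all 9 libraries with a mean per group. CPM in the text are TMM scaled. SE is the log2 fold change divided by the root of the F statistic. Of 53465 identifiers, 53274 matched the reference names. The fit was tested on simulated data first. Replicates of a group differed beyond sampling noise in every pair (chi-square per gene at least 10.6). Coordinates and overlaps come from GENCODE M21 on GRCm38, and upstream sequences from RefSeq, GRCm38.p6.

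Members and lists were chosen with earlier results of these data known. Genes named are the 9 members, the 3 called genes that rose most and the 3 that fell most in each comparison among the list of 45, 8 direct partners, and the closest gene to each member in Pearson r of log2 CPM (prior count 2). Eno1, Lman1 and Ggcx were named outside this rule, with their values known. Same-numbered libraries of different groups correlated in their deviations from the group means in every pair (r from 0.276 to 0.484, other pairs -0.376 to 0.0423), and the study states that the experiment was repeated, without tying a number to a repeat. Where nothing ties libraries to separate animals, p-values measure the spread between these cultures. Alternatives were other scalings, filters, tests, a fold of 2, the 2 groups compared alone, the replicate block, halved counts and leaving out libraries. A few listed genes are not reported here and were left out of the lists and their counts. Of the marker lists, neutrophil (1.68 to 4.26 CPM summed), dendritic cell (0.447 to 0.885) and mast cell (0.290 to 3.32) markers were low in every library.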

Additional observations from a re-analysis of the deposited data

How the results depend on the processing

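Over the alternatives, 246 counts of called genes stayed within 1.5 times their main value and 18 did not, and of the members' log2 fold changes 509 kept direction and call, 17 gained a call, 6 lost one and 8 changed sign.

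With a fold change of at least 2 in place of 1.2, the members lower under PH-CM were 1, and of the other listed genes 3 rose and 1 fell under PH-CM, with 2 higher and 0 lower under CO-CM, and 1 lower between the media. Under CO-CM the other genes were 3 higher and 4 lower with library size alone, 3 higher and 4 lower with no filter, and 3 higher with filterByExpr. Between the media 5 of the other genes were higher with no filter, and 5 members were higher with no filter, with only the 2 groups compared, and with the replicate block, where the calls gained were F10 and Plaur, and the block changed no other call of a member. Leaving out libraries, the members higher between the media ranged from 2 to 5, and the other genes under CO-CM from 3 to 6 higher and from 2 to 3 lower, and 4 were lower without replicate 1 in any group. The lowest count, 3 higher, came without UNX replicate 2, and the 5 members between the media without UNX replicate 1. The values that changed sign were all uncalled and came from leaving out libraries: under CO-CM, F13a1 (-0.39 to 0.62), F5 (-0.01 to 0.35) and F3 (-0.10 to 0.66), and between the media F3 (-0.15 to 0.61) and F7 (-0.02 to 0.51). Library size alone and no filter took Thbd under PH-CM below the fold threshold (0.25 and 0.26). The same settings took Thbd under CO-CM past it, so that it was called lower (-0.30 and -0.27). The causes were not tested, except that only the 2 groups compared and the block change the estimate of the spread by construction. With halved counts no call of a member changed.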
